A study of Mus musculus with 10 samples.

Results

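The lysosome and autophagy genes described here are 42 mouse genes, chosen by symbol as the rows that both deposited expression tables hold, out of 15997 genes listed in both. They comprise 22 lysosomal genes, 17 autophagy genes and the 3 MiT/TFE transcription factor genes Tfeb, Tfe3 and Mitf. All 42 were found in both tables, and all 42 passed the filter on low values (a mean of at least 1 RPKM over the libraries of a table, where RPKM is the number of reads relative to gene length and to library depth).

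RNA-seq was carried out on ASZ001, a mouse basal cell carcinoma (BCC) line that the study used as a model of resistance to Hedgehog pathway inhibitors. In one experiment cells received DMSO, the vehicle (3 libraries), or 10 µM SB431542, an inhibitor of the TGFß receptor kinase ALK5 (3 libraries). In the other they received DMSO (2 libraries) or 20 µM T-5224, an inhibitor of the transcription factor AP-1 (2 libraries). All groups were kept in low-serum medium for 24 h. Each experiment had its own DMSO libraries. Each inhibitor was compared only with those of its own experiment, since each table had been normalized by itself. The cells are a single line, so no other line or tissue bears on the values. The label was checked against cell type markers. All 5 keratinocyte markers (Krt5, Krt14, Krt17, Trp63 and Epcam) were expressed, and no listed fibroblast, immune or melanocyte marker exceeded 1 RPKM in any library. In each experiment 4 of 4 fibroblast and 3 of 5 immune markers were listed. Of 4 melanocyte markers, 3 were listed for SB431542 and 1 for T-5224. Of the endothelial markers Pecam1 was at 2.60 to 11.8 RPKM, while Cdh5 was at or near 0 in the T-5224 experiment and not listed for SB431542.

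Lysosomes are acidic organelles in which soluble hydrolases break down proteins, glycans and lipids, and a proton pump, the V-ATPase, keeps them acidic. In autophagy, cytoplasmic material is enclosed in a double membrane, the autophagosome, which then fuses with the lysosome. The ULK1 kinase complex starts this process, the ATG conjugation system attaches ATG8 proteins of the LC3 and GABARAP families to the membrane, and cargo receptors tie the material to ATG8. TFEB, TFE3 and MITF bind E-boxes with the core CACGTG, which occur in the promoters of many lysosomal genes.

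Promoter windows from RefSeq (build GRCm38.p6, 250 bases before to 50 after the transcript start) were at hand for 35 of the 42 genes. The genes without one were Ctsb, Npc1, Atp6v1h, Map1lc3a, Becn1, Atg12 and Atg16l1. Both strands were searched for CACGTG and for TCACGTG, which contains CACGTG and is therefore a subset of it. They were also searched for TGANTCA, a looser form of the AP-1 consensus TGA(C/G)TCA that the paper gives. A gene with several windows was counted where any of them held the motif. CACGTG stood in the windows of 9 of 19 lysosomal genes (47.4%), 2 of 13 autophagy genes (15.4%) and 0 of the 3 MiT/TFE genes, beside 8.09% of all 27025 genes with a window and 12.7% of the 8226 with a window that were tested in both experiments. TCACGTG stood in 42.1% of the lysosomal windows and in 7.69% of the autophagy windows. The share was 4.29% of all genes and 7.67% of those tested in both experiments. TGANTCA stood in 3 lysosomal windows (Glb1, Neu1 and Psap), in that of Tfe3 and in 0 of the 13 autophagy windows. Its share was 8.97% of all genes and 5.76% of those tested in both experiments. These matches describe letters in a window and not bound sites. The sequences shown are those of genes with several E-boxes (Lamp1, Gla, Ctsa and Mcoln1). Gaa is shown as an E-box gene that rose with T-5224, and Atp6v0d1 as one that fell. Also shown are Glb1 and Psap, which hold the AP-1 consensus, and Tfe3, whose letters TGAATCA match only the looser form. In Ctsa, Psap and Tfe3 only 1 of 2 windows holds the motif shown. Capitals mark the motif letters, and each sequence reads 5′ to 3′ on the strand of the gene.
Lamp1, chr8:13159085-13159160, plus strand: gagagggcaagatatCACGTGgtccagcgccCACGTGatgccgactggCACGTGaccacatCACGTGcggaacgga
Gla, chrX:134601179-134601247, minus strand: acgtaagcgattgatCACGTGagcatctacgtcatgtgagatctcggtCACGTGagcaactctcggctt
Ctsa, chr2:164833758-164833787, plus strand: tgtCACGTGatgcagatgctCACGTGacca
Mcoln1, chr8:3500433-3500494, plus strand: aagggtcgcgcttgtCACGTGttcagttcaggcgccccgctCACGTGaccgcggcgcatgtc
Gaa, chr11:119267808-119267843, plus strand: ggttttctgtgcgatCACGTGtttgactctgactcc
Atp6v0d1, chr8:105566050-105566079, minus strand: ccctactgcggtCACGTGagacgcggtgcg
Glb1, chr9:114401010-114401050, plus strand: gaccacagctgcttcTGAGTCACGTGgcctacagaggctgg
Psap, chr10:60277595-60277627, plus strand: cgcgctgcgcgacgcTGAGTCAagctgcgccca
Tfe3, chrX:7763963-7763992, plus strand: cccgggtgtaatctTGAATCAgtctctaga

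Lamp1 held 4 E-boxes within 76 bases of its start, and Gla, Ctsa, Ctsd and Mcoln1 held 2 each. In Glb1 the AP-1 letters and the E-box overlap, so that 1 run of capitals carries both. The remaining matches to CACGTG were single ones in Ctsl, Atg5 and Atg7.

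In DMSO, the lysosome and autophagy genes were expressed above the typical gene. Their median was 35.0 RPKM in the SB431542 experiment and 56.3 RPKM in the T-5224 experiment, beside 12.7 and 12.1 RPKM for all genes tested. Lamp1, a glycoprotein that lines the lysosomal membrane, was the highest in both, at 366 ± 11.5 RPKM (SD, n = 3) and 548 ± 9.22 RPKM (SD, n = 2). It was followed by Ctsd, the protease cathepsin D, at 252 and 502 RPKM, and by Psap, the precursor of the saposins that help hydrolases act on sphingolipids, at 216 and 470 RPKM. Next came Cd63 in the SB431542 experiment at 206 RPKM, and Gabarap in the T-5224 experiment at 356 RPKM. Gla, which encodes alpha-galactosidase A, was the lowest in the SB431542 experiment at 4.03 RPKM, and the cargo receptor Optn the lowest in the T-5224 experiment at 4.02 RPKM. The 3 MiT/TFE genes lay close together, between 9.16 and 11.5 RPKM and between 9.06 and 13.0 RPKM. The levels of the tables were normalized separately and were not tested against each other.

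**Figure D1:**
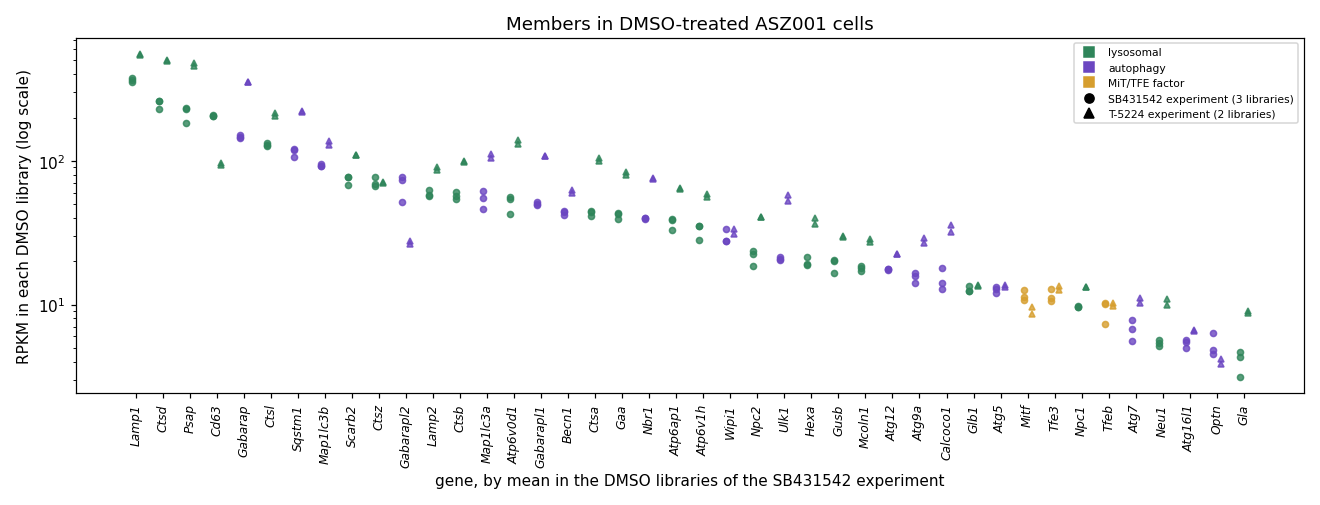
RPKM (log scale) of each of the 42 genes in each DMSO library of both experiments, ordered along the horizontal axis by mean level. Lamp1 is the highest in both experiments, and the members span from about 4 RPKM to 548 RPKM.

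With T-5224, the adjusted p was under 0.05 for 22 of the 42 genes that fell and for 9 that rose, beside 39.4% of all genes tested that fell and 40.3% that rose. Beyond 2-fold, 6 were lower and 3 were higher, beside 10.6% and 10.4% of all genes. The median log2 fold change was −0.19, where that of all genes was near 0 and their middle 50% lay between −0.50 and 0.50. Of the 22 lysosomal genes 12 were lower and 3 higher, and of the 17 autophagy genes 9 were lower and 4 higher. The T-5224 libraries lay wholly below the DMSO libraries in 24 genes and wholly above in 14, beside 44.5% and 45.1% of all genes. The shares that were lower are above the background and those that were higher are below it, in a list whose members were chosen with earlier results known. In bulk RNA, fewer cells of a kind and less RNA per cell cannot be told apart. The summed RPKM of the 5 keratinocyte markers was also lower in the T-5224 libraries, at 2237 to 2348 against 14566 to 15313 in DMSO. Krt5, Krt14 and Krt17 make up most of this sum, and Trp63 was lower as well (73.6 and 76.2 RPKM in DMSO, 50.3 and 48.7 RPKM with T-5224), while Epcam was higher (73.3 and 68.1 RPKM in DMSO, 126 and 123 RPKM with T-5224). The part of this in the results was not tested.

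The largest difference among the 42 was in Sqstm1, which encodes p62, a cargo receptor that binds ubiquitin and ATG8. Sqstm1 was at 218 and 223 RPKM in the DMSO libraries and at 1186 and 1136 RPKM with T-5224. The groups lay far apart, 5.25-fold on the log2(RPKM + 0.5) scale (log2 fold change 2.39, SE 0.05, adjusted p = 8.73e-12, limma), which ranked 146th from the highest among 10809 genes. Optn, optineurin, a receptor for damaged mitochondria and bacteria, was at 3.83 and 4.20 RPKM in DMSO and at 8.83 and 9.45 RPKM with T-5224. It also rose (1.09, SE 0.09, adjusted p = 3.31e-07). The other receptors fell. Nbr1, a ubiquitin-binding partner of p62, went from 74.8 and 75.9 RPKM to 43.3 and 41.4 RPKM (−0.82, SE 0.05, adjusted p = 6.61e-08). Calcoco1, a receptor linked to autophagy of the endoplasmic reticulum, went from 31.8 and 35.8 RPKM to 12.3 and 10.9 RPKM (−1.51, SE 0.08, adjusted p = 1.05e-08). The groups of all 4 receptors were free of overlap, beside 45.1% of all genes wholly above DMSO and 44.5% wholly below. The share of Sqstm1 in the summed RPKM of the 4 receptors was 66.4 and 65.8% in DMSO and 94.8% in each T-5224 library. Of the exon bases of Sqstm1, 17.3% overlap a gene on the opposite strand (3010026O09Rik). The strand setting of the counting is not given in the sources used here, so reads of the overlapping genes may not be told apart.

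The genes of the ATG8 family fell in 4 of 5 cases, beside 39.4% of all genes tested. Map1lc3b, which encodes LC3B, was at 130 and 138 RPKM in DMSO and at 59.4 and 57.6 RPKM with T-5224, a 2.28-fold fall (−1.19, SE 0.05, adjusted p = 3.39e-09). Gabarap, the most abundant of the family, was at 356 RPKM in both DMSO libraries and at 264 and 262 RPKM with T-5224 (−0.44). Gabarapl2 (−0.56) and Map1lc3a (−0.25) fell as well, the latter from 104 and 111 RPKM to 92.8 and 88.1 RPKM. Gabarapl1 did not pass the test, at 107 and 108 RPKM in DMSO and 122 and 113 RPKM with T-5224 (0.12, adjusted p = 0.0555). Map1lc3b made up 17.9 and 18.7% of the summed RPKM of the family in DMSO and 10.7% in each T-5224 library, and Gabarapl1 14.8 and 14.6% in DMSO and 21.9 and 21.0% with T-5224.

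Ulk1, the kinase that starts autophagosome formation, showed the largest fall of the 42 genes. It was at 52.6 and 57.9 RPKM in DMSO and at 13.1 and 12.1 RPKM with T-5224. The levels differed 4.25-fold with no overlap (−2.09, SE 0.07, adjusted p = 2.28e-10). Wipi1, which binds the phosphoinositide on the growing membrane, fell from 33.3 and 30.9 RPKM to 21.9 and 20.8 RPKM (−0.58). Atg9a, a membrane protein that brings lipid vesicles to the site, fell slightly (−0.19, adjusted p = 0.0159), a call that was lost when any of 3 of the 4 libraries was left out. Becn1, beclin 1, a subunit of the lipid kinase complex, was at 62.8 and 59.5 RPKM in DMSO and at 60.5 and 56.5 RPKM with T-5224, where the groups overlap (−0.06, adjusted p = 0.335). Of its exon bases, 43.9% overlap Cntd1 on the opposite strand. Among the conjugation genes, Atg5 (0.30, adjusted p = 0.00147) and Atg12 (0.21, adjusted p = 0.00672), whose products are joined to each other, rose. The call for Atg12 was lost without T-5224 replicate 1 (0.18, adjusted p = 0.0661). Atg7, the enzyme that activates ATG12 and the ATG8 proteins (0.15, adjusted p = 0.107), and Atg16l1, which places the conjugate on the membrane (0.00, adjusted p = 0.967), did not pass the test.

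**Figure D2:**
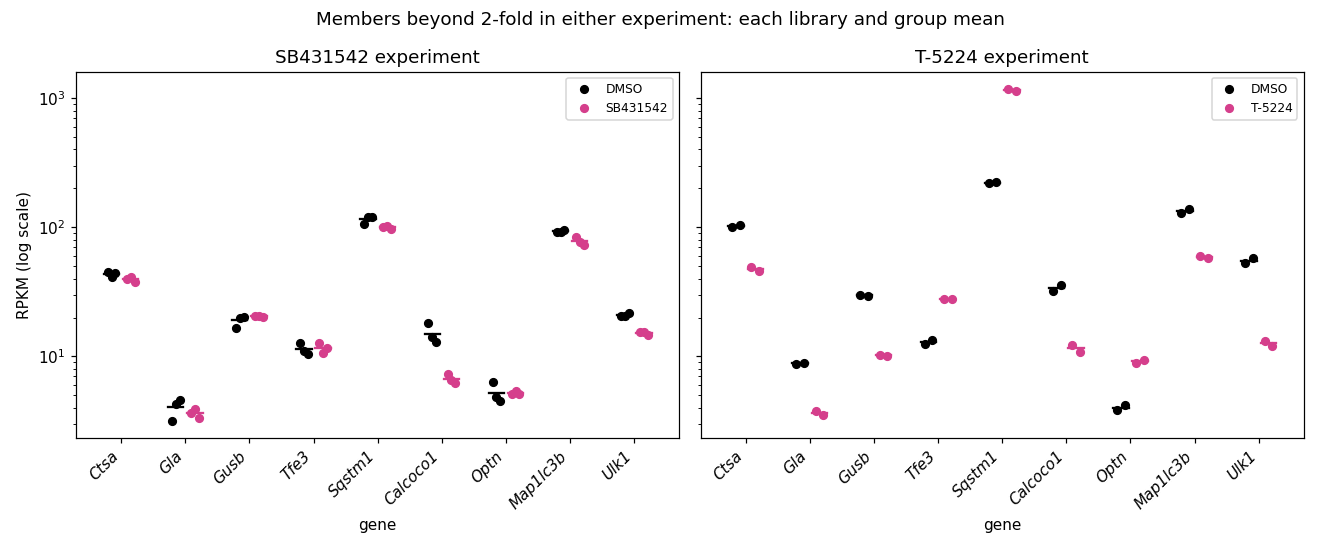
RPKM (log scale) in every library of the genes that changed beyond 2-fold in either experiment, with DMSO in black, the inhibitor in pink and lines at the group means. With T-5224, Sqstm1 is at 1186 and 1136 RPKM against 218 and 223 in DMSO, whereas with SB431542 only Calcoco1 is beyond 2-fold.

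With T-5224, 5 of the 11 lysosomal hydrolase genes fell (45.5%, near the 39.4% of all genes) and 2 rose (18.2%). Gusb, beta-glucuronidase, was at 29.9 and 29.5 RPKM in DMSO and at 10.3 and 10.1 RPKM with T-5224. This was the largest fall among the 22 lysosomal members, 2.83-fold (−1.50, SE 0.06, adjusted p = 1.58e-09). Gla was at 8.75 and 8.96 RPKM in DMSO and at 3.75 and 3.50 RPKM with T-5224 (−1.18, SE 0.08, adjusted p = 1.35e-07). Ctsa, the carboxypeptidase that protects beta-galactosidase and neuraminidase, was at 100.2 and 105 RPKM in DMSO and at 49.4 and 46.2 RPKM with T-5224 (−1.09, SE 0.06, adjusted p = 9.36e-09). In all 3 the T-5224 libraries lay wholly below DMSO, as in 44.5% of all genes tested. The 3 are named because they passed beyond 2-fold, so this separation is no further support. Ctsa shares 10.5% of its exon bases with Pltp and 6.87% with Neurl2, both on the opposite strand. Ctsb shares 16.2% with Fdft1, and the membrane gene Lamp1 7.85% with Grtp1, also on the opposite strand. Ctsd shares 6.47% with 6330512M04Rik on the same strand. The proteases Ctsd (−0.52) and Ctsl (−0.26) fell less, Ctsd from 497 and 507 RPKM to 359 and 343 RPKM. Hexa, the alpha subunit of beta-hexosaminidase, and Gaa, acid alpha-glucosidase, rose by 0.20 each on the log2 scale, and neither passed after quantile normalization (0.08 and 0.10). Hexa also did not pass without the DMSO column numbered 1 of the T-5224 experiment (0.13) or without T-5224 replicate 1 (0.18). The 4 hydrolases that did not pass were Ctsb (−0.10, adjusted p = 0.0959), Ctsz (0.12, adjusted p = 0.0676), Glb1, beta-galactosidase (−0.07), and Neu1, neuraminidase (−0.08).

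The genes of the lipid-handling proteins of the lysosomal lumen were lower. Psap went from 458 and 482 RPKM to 339 and 327 RPKM (−0.50, adjusted p = 3.71e-06), and Npc2, which carries cholesterol, changed by −0.19 (adjusted p = 0.00956), a call lost without T-5224 replicate 2 (−0.15, adjusted p = 0.0948). Npc1, the membrane protein to which NPC2 hands cholesterol, rose from 13.3 and 13.2 RPKM to 18.9 RPKM in both T-5224 libraries (0.50, adjusted p = 1.94e-05), the largest rise among the 22 lysosomal members. Of the other membrane genes, Lamp2 (−0.58), Lamp1 (−0.35) and Scarb2, the receptor that delivers glucocerebrosidase (−0.24, adjusted p = 0.00116), fell. Lamp1 was at 555 and 542 RPKM in DMSO and at 446 and 417 RPKM with T-5224. Cd63, a tetraspanin of late endosomes (0.05, adjusted p = 0.368), and Mcoln1, a calcium channel (0.11, adjusted p = 0.0998), did not pass. Of the V-ATPase genes, Atp6v0d1, a subunit of the membrane sector, fell from 131 and 139.7 RPKM to 94.0 and 89.6 RPKM (−0.55, adjusted p = 2.49e-06). The accessory subunit Atp6ap1 fell by 0.20 on the log2 scale, which did not pass without T-5224 replicate 2 (−0.16, adjusted p = 0.0604), and Atp6v1h of the cytosolic sector did not pass (−0.04, adjusted p = 0.594).

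The MiT/TFE genes did not move one way. Tfe3 was at 12.5 and 13.5 RPKM in DMSO and at 27.7 RPKM in each T-5224 library. It rose 2.09-fold (1.06, SE 0.06, adjusted p = 3.53e-08). Tfeb was at 10.3 and 9.83 RPKM in DMSO and at 13.1 and 12.9 RPKM with T-5224, a smaller rise (0.35, SE 0.07, adjusted p = 0.000621). Mitf fell, from 9.59 and 8.53 RPKM to 6.39 and 5.78 RPKM (−0.54, SE 0.09, adjusted p = 0.000153). Tfe3 made up 38.7 and 42.3% of the summed RPKM of the 3 genes in DMSO and 58.7 and 59.8% with T-5224. Of its 2 windows, 1 holds the letters TGAATCA printed above, 34 bases after the start. They do not match the AP-1 consensus TGA(C/G)TCA that the paper gives, and their part was not tested. Of the 9 lysosomal genes with an E-box, 6 were lower and 1 was higher (median log2 fold change −0.35). Of the 10 whose window has none, 6 were lower and 1 was higher (−0.20). Over all genes tested, 39.4% were lower and 40.3% higher. The difference between genes with and without an E-box was not tested.

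**Figure D3:**
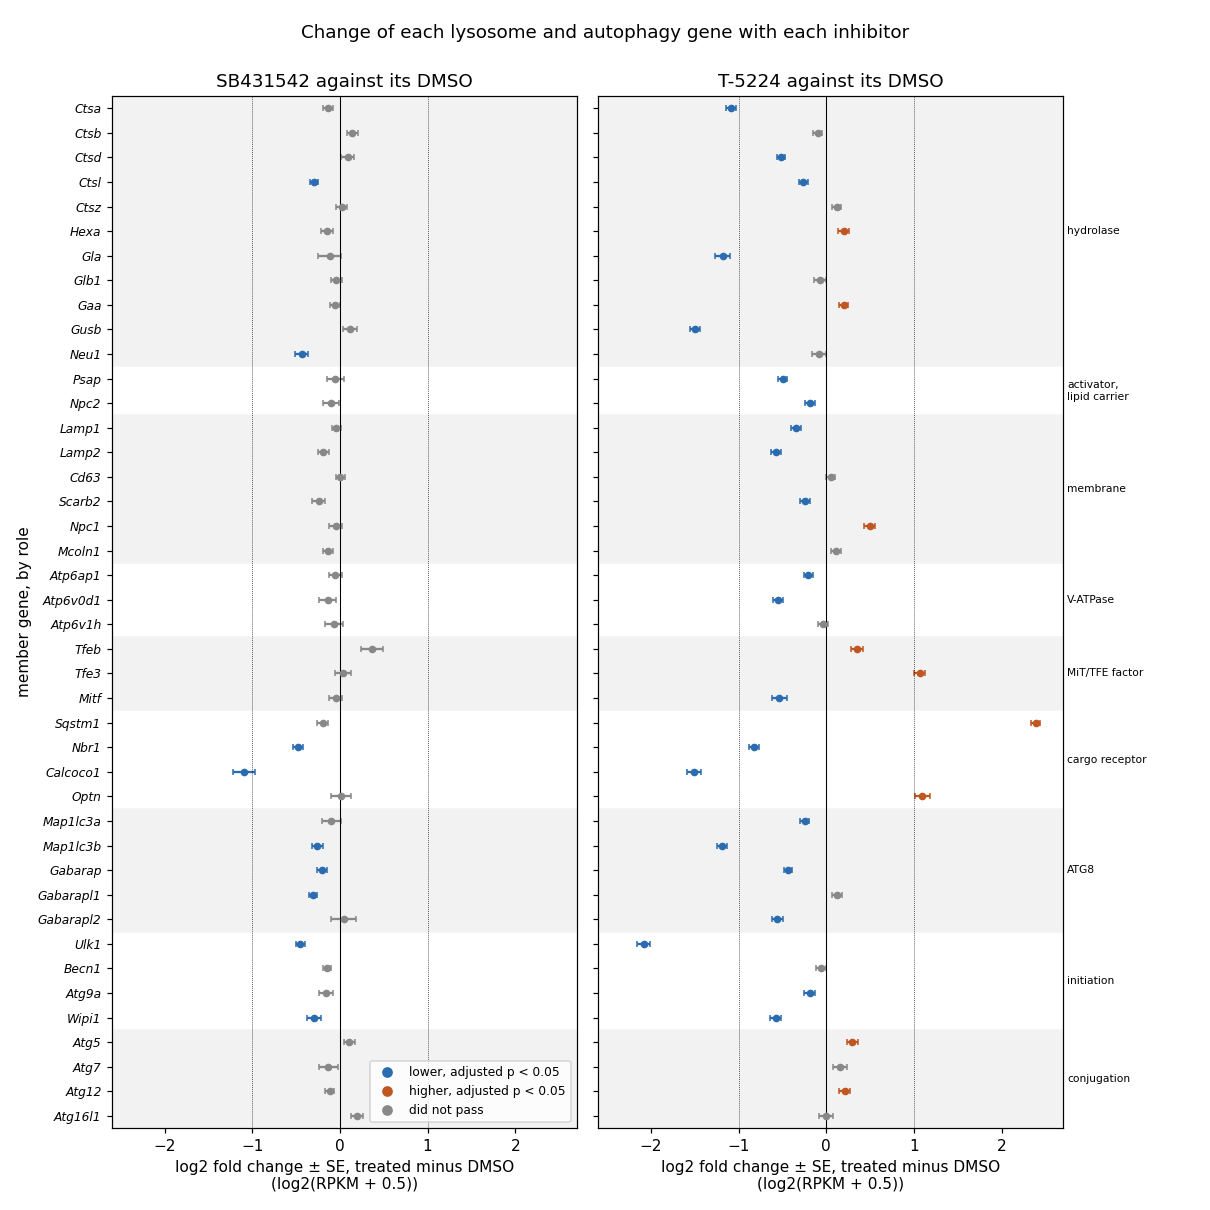
Log2 fold change (treated minus DMSO, on log2(RPKM + 0.5), with bars of 1 SE) of each of the 42 genes with each inhibitor, ordered by role. The values with T-5224 run from −2.09 (Ulk1) to 2.39 (Sqstm1), and those with SB431542 from −1.09 (Calcoco1) to 0.37 (Tfeb).

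With SB431542, 9 of the 42 genes were lower and 0 were higher, beside 10.0% of all genes tested that were lower and 10.2% that were higher. At an unadjusted p under 0.05 the count in either direction was 17. The share of all genes at that threshold was not worked out, and the shares above are at an adjusted p. Of the 9, 7 were autophagy genes (41.2% of the 17) and 2 were lysosomal genes (9.09% of the 22). The SB431542 libraries lay wholly below those of DMSO in 17 genes and wholly above in 3, beside 21.3% and 23.9% of all genes. The median log2 fold change was −0.16 for the autophagy genes and −0.06 for the lysosomal genes, beside 0.01 for all genes tested. DMSO replicate 1 of this experiment stood apart from the other DMSO libraries (SD over genes of its difference from the mean of the other DMSO libraries 0.27 on the log2 scale, against 0.16 and 0.19). Without it, 13 autophagy genes and 10 lysosomal genes were lower and Tfeb was higher, and 17.5% of all genes were lower and 19.9% higher. Without DMSO replicate 2, SB431542 replicate 2 or SB431542 replicate 3, 4 autophagy genes were lower in each case, while 6.21%, 4.52% and 3.98% of all genes were. The summed keratinocyte markers were lower with SB431542 as well, at 7328 to 7858 RPKM against 10586 to 10784 RPKM. Here too the keratins carry the sum, since Epcam was higher (112 to 115 RPKM in DMSO, 131 to 137 RPKM with SB431542) and Trp63 overlapped (70.6 to 96.1 RPKM in DMSO, 85.0 to 89.7 RPKM with SB431542). The part of this was not tested.

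Calcoco1 was the only one of the 42 that fell beyond 2-fold with SB431542, beside 0.581% of all genes. None rose beyond 2-fold, beside 0.231% of all genes. Calcoco1 was at 18.0, 14.0 and 12.9 RPKM in DMSO and at 7.33, 6.55 and 6.23 RPKM with SB431542. The groups did not overlap (−1.09, SE 0.12, adjusted p = 0.00178), and without DMSO replicate 1 the difference was −0.96, just under 2-fold. Nbr1 was at 39.9, 39.6 and 40.1 RPKM in DMSO and at 29.8, 28.8 and 26.6 RPKM with SB431542 (−0.48, SE 0.06, adjusted p = 0.00200). Sqstm1 was at 106, 121 and 119 RPKM in DMSO and at 101, 103 and 96.9 RPKM with SB431542. All treated libraries lay below, but the difference did not pass (−0.20, adjusted p = 0.0652) unless DMSO replicate 1 was left out (−0.26, adjusted p = 0.000930). Optn was at 4.55 to 6.31 RPKM in DMSO and at 5.13 to 5.41 RPKM with SB431542, within the spread of DMSO (0.01, adjusted p = 0.955).

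Ulk1 was at 20.4, 20.7 and 21.6 RPKM in DMSO and at 15.5, 15.3 and 14.5 RPKM with SB431542, a 1.37-fold fall (−0.45, SE 0.05, adjusted p = 0.00221). Wipi1 was at 33.5, 27.8 and 27.8 RPKM in DMSO and at 24.2, 23.9 and 24.0 RPKM with SB431542 (−0.29, SE 0.08, adjusted p = 0.0386). In both, every treated library was below every DMSO library. Becn1 (−0.15, adjusted p = 0.0686) and Atg9a (−0.16, adjusted p = 0.200) did not pass. Both were lower when DMSO replicate 1 was left out (−0.14, adjusted p = 0.0236, and −0.22, adjusted p = 0.0218). Among the ATG8 genes, Gabarapl1 went from 51.4, 49.4 and 50.3 RPKM to 39.9, 41.99 and 39.8 RPKM (−0.31, SE 0.05, adjusted p = 0.00654). Map1lc3b went from 92.5, 92.0 and 94.5 RPKM to 83.3, 76.8 and 73.2 RPKM (−0.26, SE 0.06, adjusted p = 0.0237). Gabarap went from 151, 145 and 147 RPKM to 134, 130 and 119 RPKM (−0.21, SE 0.06, adjusted p = 0.0454). These falls were small, and the calls for Gabarap, Map1lc3b and Wipi1 were lost under some of the settings tried. Map1lc3a (−0.10) and Gabarapl2 (0.04) did not pass, with DMSO replicate 1 the lowest of the 3 DMSO libraries in each. Without it both were lower (−0.21, adjusted p = 0.0268, and −0.14, adjusted p = 0.0304), so that Gabarapl2 changed sign. The conjugation genes did not pass either, from −0.14 in Atg7 to 0.19 in Atg16l1. Atg7 was lower when DMSO replicate 1 was left out (−0.25, adjusted p = 0.0189), and the other conjugation genes still did not pass.

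Of the lysosomal genes, Ctsl, cathepsin L, was at 129, 128 and 133 RPKM in DMSO and at 107, 108 and 103 RPKM with SB431542 (−0.29, SE 0.05, adjusted p = 0.00704). Neu1 was at 5.12, 5.42 and 5.67 RPKM in DMSO and at 3.996, 4.04 and 3.55 RPKM with SB431542 (−0.44, SE 0.08, adjusted p = 0.00904). The other 20 lay between −0.24 (Scarb2, adjusted p = 0.0506) and 0.14 (Ctsb, adjusted p = 0.139). Gusb, Gla and Ctsa, which fell beyond 2-fold with T-5224, were at 0.11, −0.12 and −0.14 with SB431542 and did not pass. Gla was lower when DMSO replicate 1 was left out (−0.27, adjusted p = 0.0332), while Gusb (0.02) and Ctsa (−0.12) still did not pass. Tfeb was at 7.27, 10.2 and 10.0 RPKM in DMSO and at 12.6, 11.8 and 11.1 RPKM with SB431542, all above, but did not pass (0.37, SE 0.13, adjusted p = 0.0800). Without DMSO replicate 1, the lowest library, it was 0.22 (adjusted p = 0.0249). Tfe3 was at 12.7, 11.045 and 10.5 RPKM in DMSO and at 12.8, 10.7 and 11.7 RPKM with SB431542. Mitf was at 12.5, 11.3 and 10.7 RPKM in DMSO and at 10.5, 11.2 and 11.6 RPKM with SB431542, and neither passed (0.03 and −0.05).

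Set side by side, 7 genes were lower with both inhibitors, namely the autophagy genes Nbr1, Calcoco1, Map1lc3b, Gabarap, Ulk1 and Wipi1 and the lysosomal gene Ctsl, beside 7.63% of the 10462 genes tested in both experiments. Neu1 and Gabarapl1 were lower with SB431542 and did not pass with T-5224, beside 1.11% of all genes. With T-5224 and not with SB431542, 15 genes were lower and 9 were higher, beside 30.1% and 31.5% of all genes, and 9 passed in neither, beside 18.1%. In 5 genes (Sqstm1, Hexa, Atg12, Gabarapl1 and Mcoln1) all T-5224 libraries lay above DMSO and all SB431542 libraries below it, beside 4.74% of all genes, and in 0 it was the reverse, beside 5.73%. The experiments have separate controls, but their doses and tables differ and the difference between the inhibitors was not tested.

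Further genes of the same pathways, 154 in 8 lists that hold none of the 42, were counted in the same fits. With T-5224, 139 were tested, of which 80 were lower (57.6%) and 31 higher (22.3%), beside 39.4% and 40.3% of all genes. With SB431542, 137 were tested, of which 20 were lower (14.6%) and 3 higher (2.19%), beside 10.0% and 10.2% of all genes. The list of other autophagy receptors had 9 of 10 lower with T-5224, 5 beyond 2-fold. Trp53inp1, which binds ATG8 proteins, went from 32.6 and 28.6 RPKM to 3.19 and 2.97 RPKM (−3.12), and Bnip3, a mitophagy receptor, changed by −2.42. Trp53inp1 was also the only gene of the 8 lists beyond 2-fold with SB431542 (−1.07, adjusted p = 0.00159). Of the other core autophagy genes 11 of 23 were lower with T-5224 (47.8%, near the share of all genes) and 7 higher, among them Atg2a, which moves lipid to the growing membrane (−1.42), Zfyve1 (−1.19) and Vmp1, an ER membrane protein (1.46). With SB431542, 6 of the 23 were lower (26.1%), including Rb1cc1 and Atg13, which form the kinase complex with ULK1 (−0.49 and −0.41). Of the fusion genes 6 of 8 (75%) were lower and 1 higher with T-5224, with Vamp8, a SNARE that acts in fusion with the lysosome (−1.67), and Epg5, a tether (1.22), beyond 2-fold.

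Of the other lysosomal hydrolases, 19 of 34 were lower (55.9%) and 5 higher (14.7%) with T-5224, to be read beside the 39.4% and 40.3% of all genes, as are the lists that follow. The serine carboxypeptidase gene Scpep1 went from 74.2 and 71.4 RPKM to 339 and 326 RPKM (2.19), and Ctsc, cathepsin C, rose by 1.63 on the log2 scale. Galc, galactosylceramidase (−1.52), and Pla2g15, a phospholipase (−1.42), fell. Of the other membrane proteins 10 of 16 were lower (62.5%) and 4 higher, with Mfsd12 (−1.39) and the channel gene Tpcn1 (−1.27) falling most. Of the mannose 6-phosphate sorting genes 4 of 9 were lower (44.4%, near the share of all genes) and 3 higher, with Gga2 (−1.68) and Nagpa (−1.22) beyond 2-fold. Of the other V-ATPase subunits 9 of 15 were lower (60%) and 4 higher, and Atp6v0a4 was just beyond 2-fold (−1.003). Of the nutrient sensing genes 12 of 24 were lower (50%) and 6 higher. Among them the sestrin genes, whose products restrain the kinase mTORC1, did not move together, with Sesn3 (−2.49) and Sesn1 (−2.15) lower and Sesn2 (1.19) higher. With SB431542 the 3 higher genes of the 8 lists were Ggh, Igf2r and Gnptab.

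**Figure D4:**
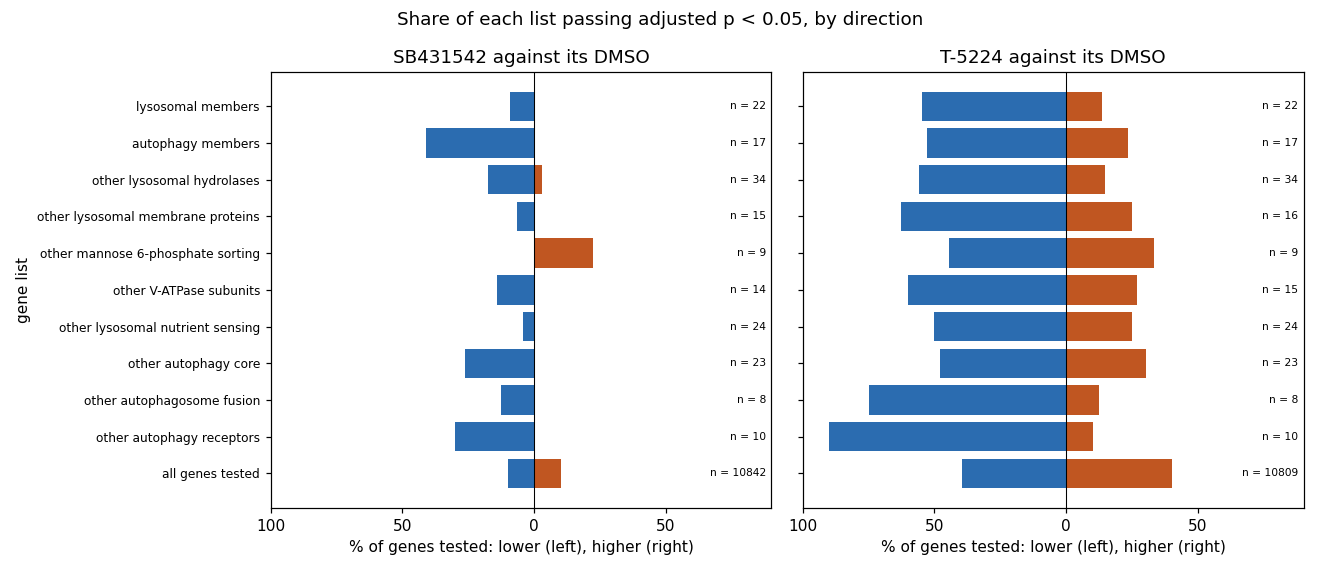
Percent of the tested genes of each list that were lower (left, blue) or higher (right, orange) at an adjusted p under 0.05 with each inhibitor; the bottom bar is all genes tested. With SB431542 the autophagy members reach 41.2% lower against 10.0% of all genes, and with T-5224 the other autophagy receptors reach 90%.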

How the data were processed

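RNA-seq libraries of ASZ001 cells were made with a stranded mRNA kit. Reads had been aligned to mm9 (TopHat) and counted per gene (HOMER), and the authors deposited 1 table of RPKM values per experiment. Counts were not analysed here. Depth, worked out from the steps of whole reads in short genes, was 32.1 to 51.5 M reads per library. All 10 columns were used and 0 left out. The DMSO columns of the T-5224 experiment carry the numbers 1 and 2, and the labels give 4 and 5. Rows whose name had become a date, 22 and 23, were dropped.

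Log2(RPKM + 0.5) of genes averaging 1 RPKM or more (10842 for SB431542, 10809 for T-5224) was fitted in limma 3.58.1 (R 4.3.3), moderated by empirical Bayes along a mean-variance trend. P-values were adjusted by Benjamini-Hochberg over these genes, with a threshold of 0.05, and a 2-fold limit gave a second count. A fold change on this scale understates that of low genes. The study describes 2 or 3 biological replicates per condition. The 42 members and all lists were chosen with earlier results of these data known. Library values are given for members beyond 2-fold in either experiment, members that passed with SB431542 and the MiT/TFE genes by rule, and for some others besides. Of the other pathway genes, those named are the largest 2 rises and falls of a list beyond 2-fold, and Rb1cc1, Atg13, Ggh, Igf2r and Gnptab, named after their values were seen. Whether DMSO and SB431542 libraries with the same replicate number were handled together is not stated. The main fit did not pair them. On simulated data with 100 genes changed 1.5-fold and 100 changed 2-fold, all were recovered in both designs. There were 10 false calls among 10842 genes for SB431542 and 11 among 10809 for T-5224. The simulated noise was independent and at the typical spread for the level of a gene, and fewer genes changed than in the data. The recovery is therefore no measure of the power in these data. Gene overlaps are from GENCODE on NCBIM37, the assembly of mm9. Promoter sequences are from RefSeq on GRCm38.p6.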

Additional observations from a re-analysis of the deposited data

Results flagged for a closer look

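In 5 genes every library moved one way with T-5224 and the opposite way with SB431542, each against its own DMSO libraries. All 5 lay above DMSO with T-5224 and below it with SB431542, as did 4.74% of the 10462 genes tested in both experiments, and 5 of 42 is read only beside that share. The difference between the inhibitors was not tested, since the tables were normalized separately. The log2 fold changes with T-5224 and SB431542 were 2.39 and −0.20 in Sqstm1, 0.20 and −0.15 in Hexa, 0.21 and −0.12 in Atg12, 0.12 and −0.31 in Gabarapl1, and 0.11 and −0.14 in Mcoln1. Of these, Sqstm1, Hexa and Atg12 passed with T-5224 and Gabarapl1 passed with SB431542, and Mcoln1 passed with neither. No group had 4 or more libraries, so no library was tested as an outlier within its group.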

How the results depend on the processing

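No fold change of a member that passed changed sign under any setting. Of the 31 members that passed with T-5224, 25 passed under all settings tried other than the 2-fold limit (the exceptions were Hexa, Gaa, Npc2, Atp6ap1, Atg9a and Atg12). Of the 9 that passed with SB431542, 6 did, and Gabarap, Map1lc3b and Wipi1 did not. With the 2-fold limit, T-5224 left 3 lysosomal genes lower and 0 higher, 3 autophagy genes lower and 2 higher, and 0 MiT/TFE genes lower and 1 higher; SB431542 left 0 lysosomal and 1 autophagy gene lower. With a mean RPKM of at least 5, which drops Neu1 from the test, 1 lysosomal gene was lower with SB431542. Quantile normalization left 1 lysosomal gene higher with T-5224 and gave medians of −0.31 (lysosomal) and −0.27 (autophagy), for which the cause was not tested. With the replicate block, 4 autophagy genes were lower with SB431542, and over all genes 699 were lower and 572 higher in place of 1085 and 1107; the correlation of same-numbered deviations was −0.15, 0.15 and −0.09, not every library correlated best with its own number, and the block changed no other count of members.

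Leaving out each library in turn, SB431542 gave 2 to 10 lower lysosomal genes, 4 to 13 lower autophagy genes and 0 to 1 higher MiT/TFE genes. The highest values came without DMSO replicate 1. The 4 came without DMSO replicate 2, SB431542 replicate 2 or SB431542 replicate 3. The cause was not tested. Groups of 2 and 3 libraries limit the precision, and in the T-5224 experiment leaving out a library leaves a group with a single one, which is assumed to vary like the other group.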
